A study of Homo sapiens with 18 samples.

Results

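The genes described here make the building blocks of RNA and DNA and the polyamines that accompany them: enzymes of purine and pyrimidine synthesis, of the folate pathway that supplies one-carbon units, of polyamine synthesis, and of nucleotide salvage and phosphorylation. The members were 36 genes listed by symbol, chosen with earlier results of these data known. Of these, 34 had a row among the 14079 symbols of the gene table. All 34 passed the filter on low counts, as did 10031 genes in all. NME1 and MTAP were not analysed here. Tags starting at the NME1 promoter are listed under the read-through symbol NME1-NME2, which is not a member and is given once beside NME2.

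Cap analysis of gene expression (CAGE) sequences short tags at the cap of each RNA, and a gene's tags mark where its transcription starts and how much RNA starts there. The libraries were 18 and came from AML3 and AML2, the human myeloid leukaemia lines OCI-AML3 and OCI-AML2. Each line was given JQ1, OTX015 or vehicle (DMSO), with 3 libraries in each of the 6 groups: AML3 with JQ1, AML3 with OTX015, AML3 with vehicle, AML2 with JQ1, AML2 with OTX015 and AML2 with vehicle. As background, OCI-AML3 carries the NPM1c mutation and OCI-AML2 does not; the labels give no genotype, dose or treatment time, and do not say whether libraries of a group came from separate cultures, so p-values measure the spread between these libraries. Both compounds belong to the thienotriazolodiazepines and block the bromodomains with which BET proteins hold on to acetylated chromatin. Each line is a single cell line, so a difference between AML3 and AML2 cannot be told apart from any other difference between these lines.

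Purine rings are built on phosphoribosyl pyrophosphate (PRPP) in a series of steps that use formyl groups carried by folate, and end in IMP, from which AMP and GMP are made. Pyrimidine rings are closed first and then joined to PRPP. Dividing leukaemia cells draw heavily on these routes, several of the enzymes are targets of drugs used against blood cancers, and many of the genes are known targets of the transcription factor MYC. Polyamines are small cations made from ornithine and decarboxylated S-adenosylmethionine, and salvage enzymes recover free bases and nucleosides.

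Depth ran from 303883 to 2163106 gene tags per library. Replicates numbered 3 averaged 580758 gene tags, fewer than replicates 1 (1194919) and 2 (1264786). The nuclear RNA MALAT1 took 5.35% to 6.75% of gene tags in AML3 and 1.41% to 3.16% in AML2 with either compound, against 0.102% to 0.291% with vehicle in both lines; its part in the results was not tested. Of 11 myeloid marker genes, 10 had a row, and their summed level was 489.2 to 778.4 CPM (tags scaled to a common library size with TMM factors) with either compound in AML3 and 1717 to 2320 CPM in AML2, against 4776 to 5968 CPM and 3073 to 4423 CPM with vehicle. The markers did not all move alike. CTSG had 4.236 to 34.38 CPM with either compound in AML3, against 2535 to 4163 CPM with vehicle. CEBPA in AML2 had 383.3 to 578.9 CPM with either compound, against 243.5 to 438.2 CPM with vehicle. None of the T cell, erythroid and epithelial markers had a row. Of the markers of B cells, megakaryocytes, fibroblasts and endothelium, each list but the endothelial one summed to at most 21.76 CPM. Of the endothelial list only PECAM1 had a row, and that gene alone does not mark endothelial cells. It had 4.236 to 14.67 CPM with either compound in AML3 and 62.65 to 201.9 CPM in AML2, against 10.48 to 30.99 CPM and 27.94 to 35.15 CPM with vehicle. Its part in the results was not tested. In bulk RNA of this kind, fewer cells of a type and less RNA per cell cannot be told apart.

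Together the 34 genes were lower with both compounds in both lines. In AML3 their summed level was 1970.0 ± 362 CPM with JQ1 and 1769 ± 218 CPM with OTX015, against 4551 ± 42.1 CPM with vehicle (mean ± SD, n = 3). In AML2 it was 2559 ± 58.7 CPM with JQ1 and 2384 ± 103 CPM with OTX015, against 4879 ± 189.7 CPM with vehicle. No compound library reached a vehicle library of its line, and the AML3 libraries numbered 3 were the lowest of their compound groups. As a share of all gene tags, with no scaling, the members took 0.2148% to 0.245% with the compounds in AML3 and 0.2125% to 0.2487% in AML2, against 0.3924% to 0.4174% and 0.3735% to 0.414% with vehicle.

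Calls were made at an adjusted p under 0.05 by edgeR's quasi-likelihood test with Benjamini-Hochberg adjustment over all genes. With JQ1 in AML3, 25 of 34 members were called lower and 1 higher, where 24.1% of all genes tested were called lower and 26.8% higher. With OTX015 in AML3, 28 were lower and 1 higher, where 26.1% and 28.8% of all genes were. With JQ1 in AML2, 24 were lower and 0 higher, where 17.4% and 17.2% of all genes were; in the DESeq2 fit 0 members were higher as well, and 26 had an unadjusted p under 0.05. With OTX015 in AML2, 26 were lower and 0 higher, where 19.9% and 20.5% of all genes were; DESeq2 gave 0 higher too, and 27 had an unadjusted p under 0.05. The median log2 change of the members was −1.13 and −1.27 in AML3 with JQ1 and OTX015 and −1.01 and −1.09 in AML2, while the median over all genes tested lay between 0 and 0.04. Because each compound was set against the same vehicle libraries, the comparisons within a line share their controls. The member list was chosen with earlier results of these data known, so the shares set beside those of all genes are a description and not a test.

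**Figure D1:**
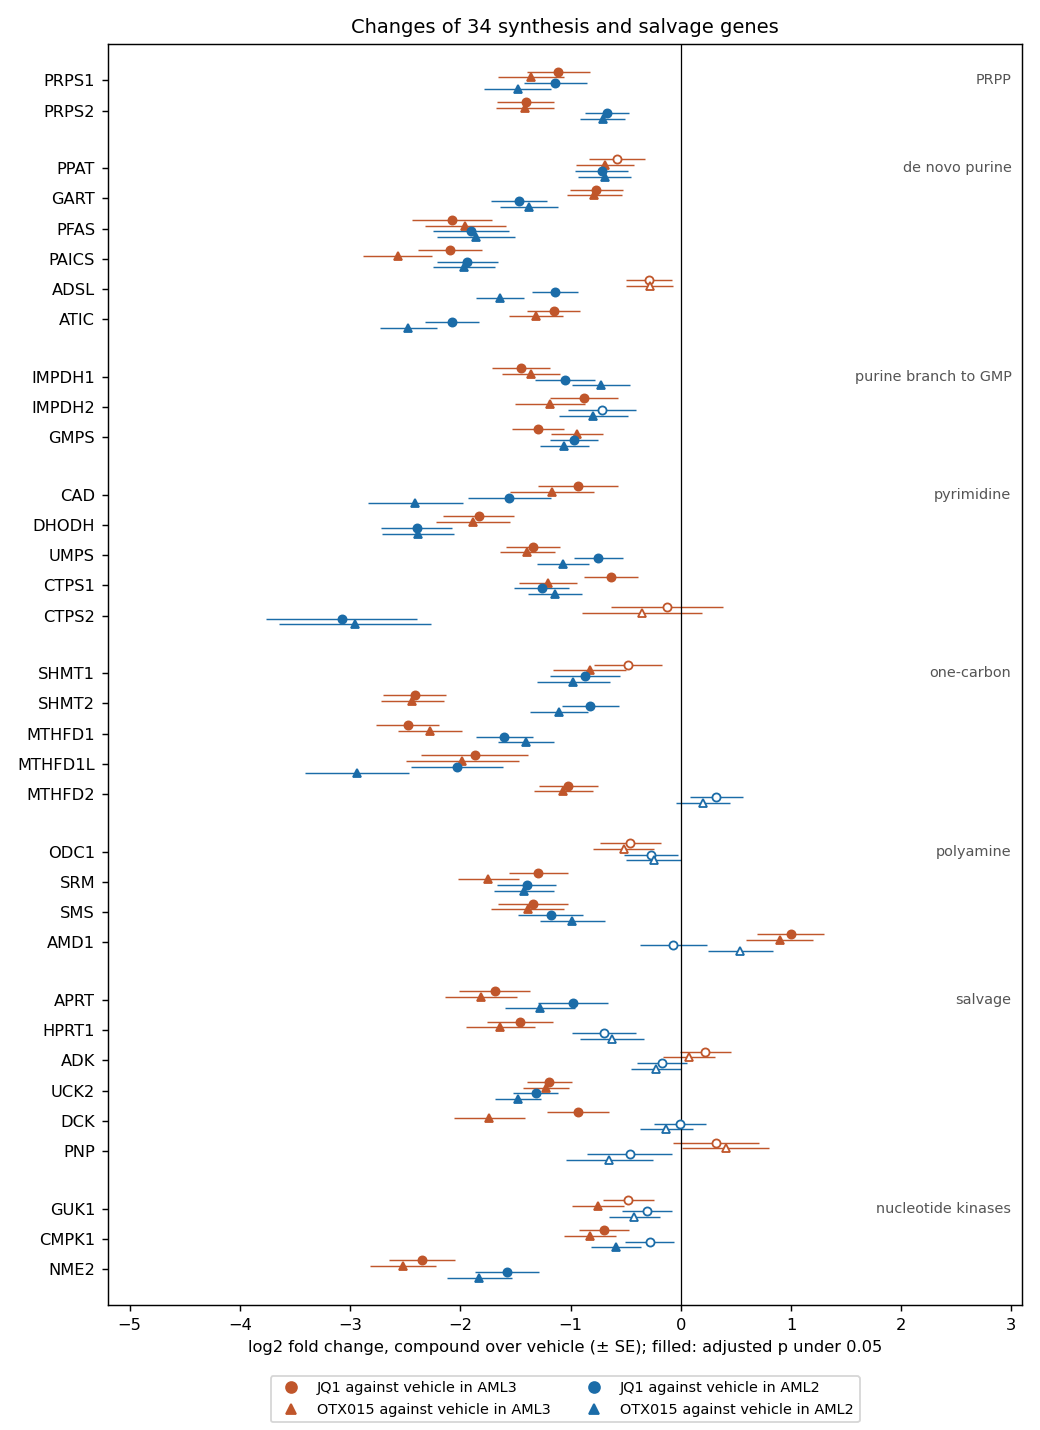
Log2 fold change over vehicle (x axis, ± SE) of the 34 genes, grouped by role, for JQ1 (circles) and OTX015 (triangles) in AML3 (orange) and AML2 (blue), with filled symbols where adjusted p was under 0.05. Most filled symbols lie left of 0, and AMD1 in AML3 is the gene with filled symbols on the right.

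These counts depended on how libraries were scaled. With library totals in place of TMM factors, the median of all genes was 0.435 and 0.507 in AML3 and 0.158 and 0.205 in AML2 with JQ1 and OTX015, and 18, 19, 21 and 19 members were then called lower in that order, with 2, 1, 0 and 0 called higher. Over all genes the same change gave 3635 higher and 1370 lower in place of 2685 and 2414 for JQ1 in AML3, and 4029 and 1512 in place of 2886 and 2619 for OTX015 in AML3. In AML2 it gave 1881 higher and 1262 lower in place of 1727 and 1742 for JQ1, and 2262 and 1441 in place of 2053 and 1993 for OTX015. With library totals, lower calls ended for CAD, CMPK1, CTPS1, DCK, GART, IMPDH2 and MTHFD2 with JQ1 in AML3. With OTX015 in AML3 they ended for CAD, CMPK1, CTPS1, GART, GMPS, GUK1, MTHFD2, PPAT and SHMT1. In AML2 those of PPAT, PRPS2 and SHMT1 ended with either compound, and those of CMPK1, IMPDH1, IMPDH2 and SMS with OTX015. With TMM factors, 20 members were called lower in all 4 comparisons, and 4, ADK, AMD1, ODC1 and PNP, in none. The same count over all genes was not made, so there is no share to set beside it.

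PRPP synthetases make the activated ribose on which purines are built and to which pyrimidines and salvaged bases are joined. In AML3, PRPS1 had 17.8, 15.9 and 9.02 CPM with JQ1 and 14.2, 12 and 10.8 CPM with OTX015, against 33.4, 34.6 and 28.4 CPM with vehicle. In AML2 it had 19.4, 15 and 7.06 CPM with JQ1 and 11.7, 10.6 and 12.6 CPM with OTX015, against 29.5, 32 and 35.8 CPM with vehicle. Every compound library lay below every vehicle library of its line, and the log2 changes were −1.11 with JQ1 and −1.36 with OTX015 in AML3 and −1.14 and −1.48 in AML2 (SE 0.28 to 0.30, adjusted p at most 0.00295). PRPS2 was lower in AML3 than in AML2 already with vehicle. Its AML3 libraries had 17.8, 13.7 and 16.2 CPM with JQ1 and 17.5, 18.6 and 8.61 CPM with OTX015, against 40.5, 48.5 and 38.3 CPM with vehicle, and its AML2 libraries had 61.6, 54.6 and 44.1 CPM with JQ1 and 61.9, 45.5 and 50.5 CPM with OTX015, against 87.6, 79.2 and 93.3 CPM with vehicle. The groups did not overlap in either line, and the log2 changes were −1.41 with JQ1 and −1.41 with OTX015 in AML3 and −0.67 and −0.71 in AML2 (SE 0.20 to 0.26, adjusted p at most 0.0112). Without AML2 JQ1 replicate 3 the call for JQ1 in AML2 ended (log2 −0.55, adjusted p = 0.0648), as it did for OTX015 without AML2 OTX015 replicate 2 (log2 −0.60, adjusted p = 0.0538). The copies are close relatives, and how the authors placed tags that fit both is not given in the sources used here.

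The enzymes that build IMP from PRPP had a median log2 change of −0.96 and −1.05 in AML3 with JQ1 and OTX015 and −1.68 and −1.75 in AML2. Their summed level was 224 ± 25.4 CPM with JQ1 and 204.9 ± 61.3 CPM with OTX015 in AML3, against 469.6 ± 17.4 CPM with vehicle. In AML2 it was 212.1 ± 4.64 CPM with JQ1 and 189.6 ± 14.5 CPM with OTX015, against 619.9 ± 36.6 CPM with vehicle. All 6 were called lower with either compound in AML2; in AML3, 4 were with JQ1 and 5 with OTX015. PAICS, which encodes an enzyme of the middle of the pathway (GRCh38 chromosome 4, 56435741 to 56464579), changed most on average over the 4 comparisons. In AML3 it had 37.3, 48.6 and 12.6 CPM with JQ1 and 22.9, 36.1 and 10.8 CPM with OTX015, against 162, 138 and 145 CPM with vehicle, and in AML2 it had 55.9, 55.5 and 54.7 CPM with JQ1 and 51.4, 60.9 and 48.4 CPM with OTX015, against 261, 183 and 194 CPM with vehicle. No compound library came within the vehicle range, and the log2 changes were −2.09 with JQ1 and −2.57 with OTX015 in AML3 and −1.94 and −1.97 in AML2 (SE 0.28 to 0.31, adjusted p at most 6.94e-06). PFAS, ATIC and GART, which carry out steps before and after PAICS, were called lower in all 4 comparisons, with log2 changes from −2.47 (ATIC, OTX015 in AML2) to −0.77 (GART, JQ1 in AML3). With library totals alone, both GART calls in AML3 ended (log2 −0.38 with JQ1 and −0.33 with OTX015).

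PPAT, the first committed enzyme of the pathway, is the neighbour of PAICS on the opposite strand (GRCh38 chromosome 4, 56393362 to 56435615), and it changed least of this group on average. AML3 libraries had 24, 25.4 and 28.9 CPM with JQ1 and 24, 25.2 and 21.5 CPM with OTX015, against 28.7, 42.4 and 48.2 CPM with vehicle, and in AML2 it had 32, 22 and 38.8 CPM with JQ1 and 30.4, 31 and 29.5 CPM with OTX015, against 44.7, 45 and 60.1 CPM with vehicle. With OTX015 in AML3 and with either compound in AML2 the libraries lay below vehicle; with JQ1 in AML3 they overlapped. The log2 change in AML3 was −0.58 (SE 0.25, adjusted p = 0.0569) with JQ1 and −0.69 (SE 0.26, adjusted p = 0.0284) with OTX015, and in AML2 −0.72 (SE 0.24, adjusted p = 0.0219) with JQ1 and −0.69 (SE 0.24, adjusted p = 0.0249) with OTX015. The AML2 JQ1 call ended in 2 of 18 fits that left out 1 library, and the OTX015 calls ended in 5 and 4 of 18 in AML3 and AML2. The promoter windows of the pair are shown because these neighbours share a short stretch of promoter DNA. Sequences are from RefSeq on GRCh38.p14, 250 bases before to 50 after an annotated start, written 5′ to 3′ on the gene's strand. Capitals mark CACGTG, the E-box that MYC is known to bind, and TATAA on either strand.
PPAT chr4:56435566-56435865, minus strand: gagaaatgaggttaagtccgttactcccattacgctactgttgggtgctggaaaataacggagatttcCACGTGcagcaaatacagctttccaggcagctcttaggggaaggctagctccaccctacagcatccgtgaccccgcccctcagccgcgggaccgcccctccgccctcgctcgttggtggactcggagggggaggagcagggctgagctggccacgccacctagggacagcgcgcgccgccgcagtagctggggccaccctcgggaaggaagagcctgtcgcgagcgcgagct
PAICS chr4:56436010-56436309, plus strand: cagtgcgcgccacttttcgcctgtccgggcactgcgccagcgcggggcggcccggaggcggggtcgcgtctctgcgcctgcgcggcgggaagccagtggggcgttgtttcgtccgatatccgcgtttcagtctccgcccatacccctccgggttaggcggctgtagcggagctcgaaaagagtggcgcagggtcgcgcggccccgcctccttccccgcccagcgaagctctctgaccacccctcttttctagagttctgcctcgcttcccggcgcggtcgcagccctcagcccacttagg
The PPAT window begins its E-box 182 bases before the PPAT start, and the same letters begin 40 bases after another RefSeq start of PAICS, 137 bases from that of PPAT; these windows overlap by 236 bases. The PAICS window printed starts 508 bases further on and holds no CACGTG. The PAICS start region 503 bases upstream of its main one held 1.25% of the PAICS tags.

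ADSL, which encodes the lyase that acts late in IMP synthesis and again on the way to AMP (GRCh38 chromosome 22, 40346500 to 40390463), differed between the lines. In AML3 it had 81.8, 84.5 and 72.2 CPM with JQ1 and 98.3, 83.2 and 53.8 CPM with OTX015, against 93.8, 102 and 97.8 CPM with vehicle, and in AML2 it had 63.9, 60.8 and 72.3 CPM with JQ1 and 40.9, 55.1 and 40 CPM with OTX015, against 127, 149 and 156 CPM with vehicle. AML2 compound libraries were all below their vehicle libraries. In AML3 the JQ1 libraries were all below vehicle too, while the OTX015 libraries overlapped vehicle. The log2 change was −0.29 (SE 0.21, adjusted p = 0.253) with JQ1 and −0.28 (SE 0.21, adjusted p = 0.262) with OTX015 in AML3, against −1.14 (SE 0.21, adjusted p = 0.000145) with JQ1 and −1.64 (SE 0.22, adjusted p = 2.13e-06) with OTX015 in AML2. The OTX015 effect in AML3 minus that in AML2 was 1.36 (SE 0.30, adjusted p = 0.00509), a call kept under all 25 alternatives, while for JQ1 the difference was 0.85 (SE 0.30, adjusted p = 0.081). With vehicle ADSL was lower in AML3 than in AML2, with a log2 difference of −0.56 (SE 0.20, adjusted p = 0.0428), a call that ended in 12 of 18 fits leaving out 1 library, among them those without AML2 vehicle replicate 3 (log2 −0.50) and AML3 vehicle replicate 1 (log2 −0.53).

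On the branch from IMP to GMP, IMPDH1 and IMPDH2 encode the rate-limiting IMP dehydrogenases and GMPS the synthetase that follows. With either compound in AML3 all 3 were called lower; in AML2, 2 were with JQ1 and all 3 with OTX015. In AML3, IMPDH1 had 27.6, 45.4 and 34.3 CPM with JQ1 and 38.2, 42.7 and 30.2 CPM with OTX015, against 85.6, 127 and 78 CPM with vehicle. AML2 libraries had 39.9, 24.7 and 40.6 CPM with JQ1 and 30.4, 39.7 and 65.3 CPM with OTX015, against 64.9, 71.6 and 76.7 CPM with vehicle, where the highest OTX015 library passed the lowest vehicle library. The log2 changes were −1.45 with JQ1 and −1.36 with OTX015 in AML3 and −1.05 and −0.72 in AML2 (SE 0.26 to 0.27, adjusted p at most 0.0311). The call for OTX015 in AML2 ended in 4 of 18 fits leaving out 1 library, those without AML2 vehicle replicate 2 or 3 and AML2 OTX015 replicate 1 or 2 (log2 −0.72 to −0.51, adjusted p up to 0.194). IMPDH2, the more abundant isoenzyme in these libraries, had 334, 314 and 135 CPM with JQ1 and 192, 289 and 153 CPM with OTX015, against 522, 485 and 444 CPM with vehicle in AML3. The AML2 libraries had 255, 337 and 183 CPM with JQ1 and 264, 227 and 246 CPM with OTX015, against 285, 505 and 489 CPM with vehicle. Its JQ1 libraries overlapped vehicle in AML2. Its log2 change was −0.88 (SE 0.31, adjusted p = 0.0214) with JQ1 and −1.18 (SE 0.32, adjusted p = 0.00276) with OTX015 in AML3, and −0.72 (SE 0.31, adjusted p = 0.0771) with JQ1 and −0.79 (SE 0.31, adjusted p = 0.0447) with OTX015 in AML2. The call for OTX015 in AML2 ended in 11 of 18 fits leaving out 1 library (log2 −0.86 to −0.66), and that for JQ1 in AML3 without AML3 vehicle replicate 1 (log2 −0.83) or AML3 JQ1 replicate 3 (log2 −0.58). GMPS had 37.3, 41.2 and 32.5 CPM with JQ1 and 53.5, 31.8 and 62.5 CPM with OTX015, against 90.9, 96 and 89.3 CPM with vehicle in AML3. For AML2 the values were 84.5, 62.6 and 74.1 CPM with JQ1 and 67.7, 81.3 and 54.7 CPM with OTX015, against 136, 127 and 172 CPM with vehicle, with no overlap in either line. Log2 changes were −1.30 with JQ1 and −0.94 with OTX015 in AML3 and −0.97 and −1.06 in AML2 (SE 0.22 to 0.24, adjusted p at most 0.00158). With vehicle GMPS was lower in AML3 than in AML2, with a log2 difference of −0.64 (SE 0.21, adjusted p = 0.0255), which no longer passed without AML2 vehicle replicate 3 (log2 −0.51) or without AML3 vehicle replicate 1, 2 or 3 (log2 −0.64, −0.68 and −0.63).

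Of the pyrimidine genes, all 5 were called lower with either compound in AML2 and 4 in AML3, CTPS2 being the exception. DHODH, the mitochondrial enzyme that oxidises dihydroorotate and a drug target in leukaemia (GRCh38 chromosome 16, 72008588 to 72027664), changed most on average. AML3 libraries had 5.34, 10.6 and 5.41 CPM with JQ1 and 7.65, 6.57 and 6.46 CPM with OTX015, against 24.6, 25.1 and 29.8 CPM with vehicle, and in AML2 it had 6.85, 5.29 and 7.06 CPM with JQ1 and 5.84, 7.74 and 4.21 CPM with OTX015, against 34.5, 29.8 and 37.1 CPM with vehicle. The groups did not overlap, and the log2 changes were −1.83 with JQ1 and −1.89 with OTX015 in AML3 and −2.40 and −2.38 in AML2 (SE 0.32 to 0.33, adjusted p at most 4.92e-05). CAD, whose multifunctional protein starts the pathway, and UMPS, which ends it at UMP, were called lower in all 4 comparisons, with log2 changes from −2.41 (CAD, OTX015 in AML2) to −0.75 (UMPS, JQ1 in AML2). For CAD the AML3 JQ1 call ended in 4 of 18 fits leaving out 1 library and the AML3 OTX015 call without AML3 vehicle replicate 2 (log2 −0.97), and the UMPS call with JQ1 in AML2 ended without AML2 JQ1 replicate 3 (log2 −0.62). In AML3 the CAD libraries with JQ1 overlapped vehicle. CTPS1 makes CTP from UTP in proliferating blood cells and changed least on average. It had 45.3, 46.5 and 32.5 CPM with JQ1 and 24, 26.3 and 38.8 CPM with OTX015, against 73.9, 63.2 and 58.1 CPM with vehicle in AML3. In AML2 the libraries had 47.9, 23.8 and 40.6 CPM with JQ1 and 44.4, 30 and 48.4 CPM with OTX015, against 73.3, 92.8 and 98.4 CPM with vehicle, without overlap. Against vehicle, log2 changes were −0.63 with JQ1 and −1.21 with OTX015 in AML3 and −1.26 and −1.14 in AML2 (SE 0.24 to 0.27, adjusted p at most 0.033). With JQ1 in AML3 that call ended without AML3 vehicle replicate 1 (log2 −0.53, adjusted p = 0.132) or 2 (−0.68, 0.0512), or without AML3 JQ1 replicate 3 (−0.52, 0.1).

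CTPS2, a second CTP synthase (GRCh38 chromosome X, 16588003 to 16712936), was the scarcest member and fell in AML2. There it had 2.28, 1.76 and 0 CPM with JQ1 and 3.5, 0.967 and 0 CPM with OTX015, against 9.27, 20.1 and 10.2 CPM with vehicle, which is 2, 2 and 0 tags with JQ1 and 3, 1 and 0 tags with OTX015, against 11, 37 and 8 tags with vehicle. In AML3 it had 7.11, 7.4 and 14.4 CPM with JQ1 and 6.55, 4.38 and 15.1 CPM with OTX015, against 14.1, 5.19 and 8.51 CPM with vehicle, and the groups overlapped. The log2 change was −0.12 (SE 0.51, adjusted p = 0.858) with JQ1 and −0.35 (SE 0.54, adjusted p = 0.6) with OTX015 in AML3, against −3.08 (SE 0.68, adjusted p = 0.00102) with JQ1 and −2.96 (SE 0.69, adjusted p = 0.00127) with OTX015 in AML2. Fitted changes rest on so few tags that their size depends on the prior count. The JQ1 effect in AML3 minus that in AML2 was 2.95 (SE 0.89, adjusted p = 0.0423), but this call ended in 9 of 18 fits leaving out 1 library (log2 2.43 to 3.32), and the OTX015 difference was 2.61 (SE 0.93, adjusted p = 0.0874). Its window is shown as that of the member with the largest fall in AML2.
CTPS2 chrX:16712620-16712919, minus strand: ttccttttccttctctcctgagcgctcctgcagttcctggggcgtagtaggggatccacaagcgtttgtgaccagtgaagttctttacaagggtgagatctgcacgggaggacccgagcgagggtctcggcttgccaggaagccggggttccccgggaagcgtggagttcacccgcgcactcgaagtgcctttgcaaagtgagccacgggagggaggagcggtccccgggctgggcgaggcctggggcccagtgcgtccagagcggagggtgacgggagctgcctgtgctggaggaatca
It holds neither CACGTG nor TATAA.

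The folate genes had a median log2 change of −1.87 and −1.98 in AML3 with JQ1 and OTX015 and −0.87 and −1.11 in AML2. Their summed level was 129 ± 31.3 CPM with JQ1 and 123.8 ± 21.7 CPM with OTX015 in AML3, against 422.2 ± 57.5 CPM with vehicle, and 319.7 ± 27.2 CPM and 282.3 ± 2.79 CPM in AML2, against 463.3 ± 62.6 CPM with vehicle. That sum was not tested between lines; the tests are per gene. In AML3, 4 of 5 were called lower with JQ1 and 5 with OTX015; in AML2, 4 were with each. MTHFD1L, the mitochondrial formate-releasing enzyme, changed most on average, at low levels. It had 3.56, 9.51 and 5.41 CPM with JQ1 and 8.74, 3.29 and 4.31 CPM with OTX015, against 31.1, 24.2 and 7.09 CPM with vehicle in AML3, where 1 vehicle library overlapped the compound libraries. In AML2 it had 9.13, 6.17 and 19.4 CPM with JQ1 and 7.01, 4.84 and 4.21 CPM with OTX015, against 32.9, 39.1 and 60.1 CPM with vehicle, without overlap. The log2 changes were −1.87 with JQ1 and −1.98 with OTX015 in AML3 and −2.03 and −2.94 in AML2 (SE 0.41 to 0.51, adjusted p at most 0.00254). MTHFD1, the cytosolic enzyme that turns formate into the formyl folate used in purine synthesis (GRCh38 chromosome 14, 64388031 to 64463457), had the largest fall of any member with JQ1 in AML3. It had 16.9, 11.6 and 5.41 CPM with JQ1 and 15.3, 17.5 and 6.46 CPM with OTX015, against 78, 73.5 and 52.5 CPM with vehicle in AML3. The AML2 libraries had 27.4, 23.8 and 22.9 CPM with JQ1 and 35, 23.2 and 27.4 CPM with OTX015, against 67.4, 83 and 75.4 CPM with vehicle, without overlap. Log2 changes were −2.48 with JQ1 and −2.28 with OTX015 in AML3 and −1.60 and −1.40 in AML2 (SE 0.26 to 0.29, adjusted p at most 0.0001). Its promoter window is shown for that reason and holds an E-box that begins 15 bases before the start.
MTHFD1 chr14:64388103-64388402, plus strand: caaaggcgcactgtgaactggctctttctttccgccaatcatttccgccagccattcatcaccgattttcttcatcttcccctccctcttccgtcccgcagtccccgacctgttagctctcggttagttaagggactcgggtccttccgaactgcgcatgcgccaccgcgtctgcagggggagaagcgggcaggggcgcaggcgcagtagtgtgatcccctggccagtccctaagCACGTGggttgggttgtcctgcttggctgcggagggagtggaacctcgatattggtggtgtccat

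SHMT2 and MTHFD2 work in sequence in mitochondria, where serine gives up its one-carbon unit to folate, and both responded more in AML3. SHMT2 (GRCh38 chromosome 12, 57229327 to 57234935) had 48, 37 and 18 CPM with JQ1 and 41.5, 43.8 and 15.1 CPM with OTX015, against 216, 197 and 163 CPM with vehicle in AML3. For AML2 the values were 84.5, 108 and 106 CPM with JQ1 and 87.6, 92.9 and 59 CPM with OTX015, against 160.1, 181 and 185 CPM with vehicle. Compound libraries lay below vehicle in both lines, and all AML3 compound libraries lay below all AML2 ones. Its log2 change was −2.41 (SE 0.28, adjusted p = 2.75e-07) with JQ1 and −2.44 (SE 0.29, adjusted p = 2.24e-07) with OTX015 in AML3, against −0.82 (SE 0.26, adjusted p = 0.0148) with JQ1 and −1.11 (SE 0.26, adjusted p = 0.00155) with OTX015 in AML2. The JQ1 call in AML2 ended without AML2 JQ1 replicate 1 (log2 −0.72, adjusted p = 0.0772). The difference of the effects, AML3 minus AML2, was −1.59 (SE 0.38, adjusted p = 0.00957) for JQ1, kept under all 25 alternatives, and −1.33 (SE 0.39, adjusted p = 0.0336) for OTX015, which ended in 7 of 18 fits leaving out 1 library (log2 −1.36 to −1.07).

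MTHFD2 (GRCh38 chromosome 2, 74198562 to 74217565), which encodes the next enzyme of that route and is high in many tumours, had 72, 40.2 and 45.1 CPM with JQ1 and 43.7, 69 and 38.8 CPM with OTX015, against 97.3, 118 and 111 CPM with vehicle in AML3. AML2 libraries had 197, 133 and 162 CPM with JQ1 and 132, 144 and 179 CPM with OTX015, against 119, 108 and 169.9 CPM with vehicle. In AML3 every compound library was below vehicle, whereas in AML2 the groups overlapped and the means were higher with the compounds. The log2 change was −1.02 (SE 0.26, adjusted p = 0.00244) with JQ1 and −1.07 (SE 0.27, adjusted p = 0.00169) with OTX015 in AML3, against 0.32 (SE 0.24, adjusted p = 0.321) with JQ1 and 0.20 (SE 0.25, adjusted p = 0.549) with OTX015 in AML2. The difference of the effects was −1.34 (SE 0.36, adjusted p = 0.0207) for JQ1 and −1.27 (SE 0.36, adjusted p = 0.0297) for OTX015; these calls ended in 5 and 8 of 18 fits leaving out 1 library (log2 −1.28 to −1.17 and −1.30 to −1.14). SHMT1, the cytosolic counterpart of SHMT2, was called lower in 3 comparisons, with log2 changes of −0.97 to −0.83, and was at −0.48 (SE 0.31, adjusted p = 0.198) with JQ1 in AML3. Some single library, when left out, ended each of those 3 calls.

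**Figure D2:**
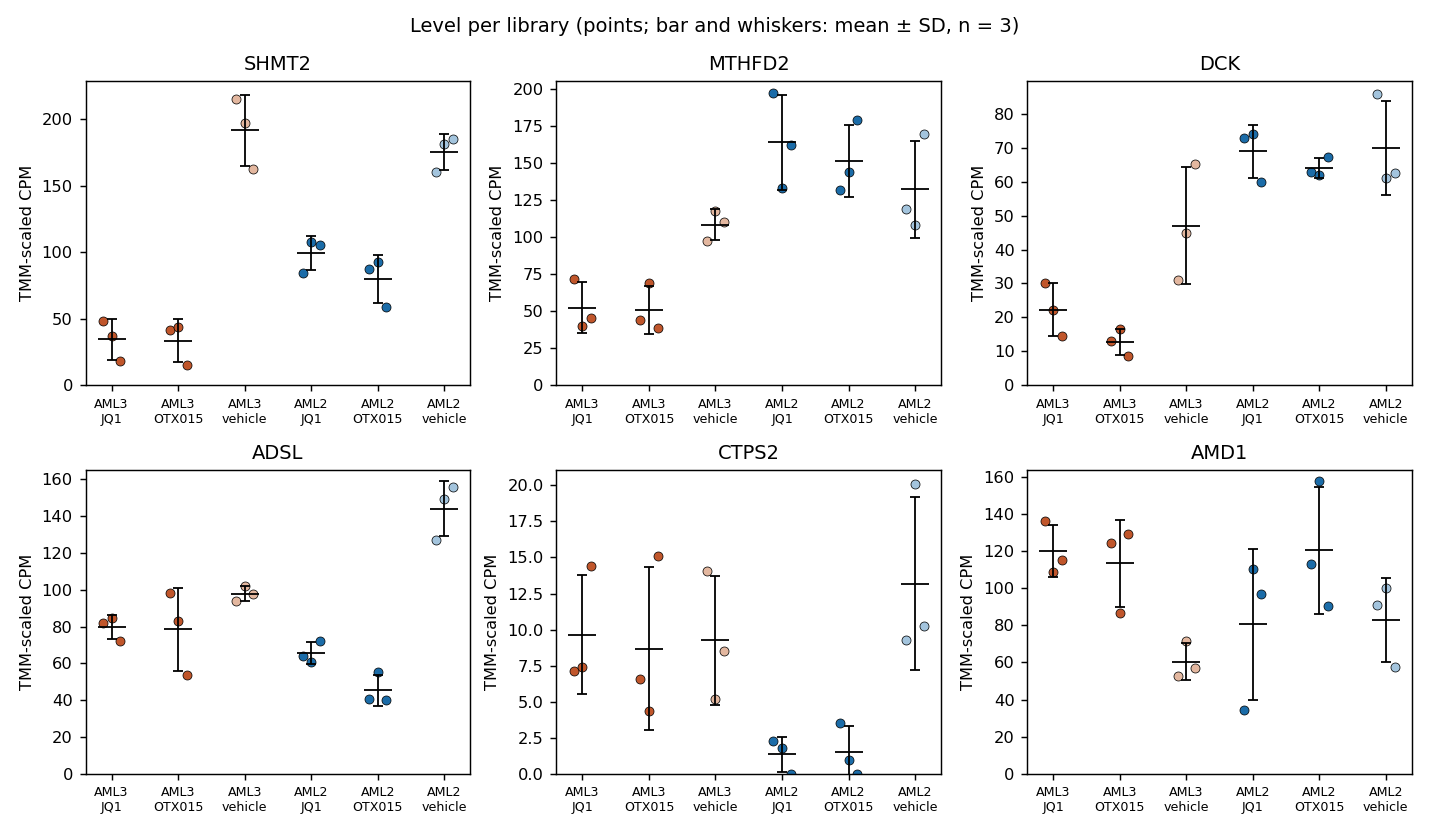
Level in every library (y axis, TMM-scaled CPM; points are libraries, bar and whiskers the mean ± SD, n = 3) of 6 genes, in AML3 (left of each panel) and AML2 with JQ1, OTX015 and vehicle. SHMT2, MTHFD2 and DCK are lowest in the AML3 compound libraries and CTPS2 in the AML2 compound libraries. ADSL has its lowest means in the AML2 compound groups. Among their libraries lie 1 AML3 OTX015 library (53.8 CPM) and 1 AML3 JQ1 library (72.15 CPM, below the highest AML2 JQ1 library at 72.32 CPM). AMD1 is above vehicle in AML3.

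Of the 4 polyamine genes, SRM and SMS, the synthases that make spermidine and spermine, were called lower in all 4 comparisons. In AML3, SRM had 88, 96.2 and 46.9 CPM with JQ1 and 71, 64.6 and 30.2 CPM with OTX015, against 179, 189 and 214 CPM with vehicle. In AML2 it had 69.6, 82.9 and 91.7 CPM with JQ1 and 79.4, 64.8 and 99 CPM with OTX015, against 168, 211 and 264 CPM with vehicle, and no groups overlapped. Against vehicle, log2 changes were −1.29 with JQ1 and −1.75 with OTX015 in AML3 and −1.40 and −1.42 in AML2 (SE 0.27 to 0.28, adjusted p at most 0.000302). For SMS the log2 changes ran from −1.39 to −0.98, and the call for OTX015 in AML2 ended without AML2 vehicle replicate 3 (log2 −0.68) or AML2 OTX015 replicate 2 (log2 −0.87). AMD1, which encodes S-adenosylmethionine decarboxylase and supplies the aminopropyl groups both synthases use (GRCh38 chromosome 6, 110874770 to 110895713), was the only member called higher against vehicle. AML3 libraries had 136, 109 and 115 CPM with JQ1 and 125, 86.5 and 129 CPM with OTX015, against 52.8, 71.8 and 56.7 CPM with vehicle, with every compound library above every vehicle library. AML2 libraries had 34.2, 110.2 and 97 CPM with JQ1 and 113, 158 and 90.5 CPM with OTX015, against 91, 100.3 and 57.5 CPM with vehicle, with overlap. Its log2 change was 0.996 (SE 0.30, adjusted p = 0.00835) with JQ1 and 0.90 (SE 0.31, adjusted p = 0.0159) with OTX015 in AML3, against −0.07 (SE 0.30, adjusted p = 0.897) with JQ1 and 0.54 (SE 0.29, adjusted p = 0.149) with OTX015 in AML2. The difference between the lines was 1.06 (SE 0.43, adjusted p = 0.143) for JQ1 and 0.36 (SE 0.42, adjusted p = 0.679) for OTX015. Without AML3 vehicle replicate 1 both AML3 calls ended (log2 0.88, adjusted p = 0.0502, and log2 0.78, adjusted p = 0.0772), and without AML3 OTX015 replicate 1 the OTX015 call did (log2 0.80, adjusted p = 0.0603).

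ODC1, ornithine decarboxylase, the first enzyme of the pathway and a textbook MYC target (GRCh38 chromosome 2, 10439968 to 10448504), was called in none of the 4 comparisons with vehicle. In AML3 it had 49.8, 51.8 and 64.9 CPM with JQ1 and 57.9, 46 and 53.8 CPM with OTX015, against 69.8, 76.1 and 80.8 CPM with vehicle, and in AML2 it had 118, 105 and 183 CPM with JQ1 and 87.6, 129.6 and 198 CPM with OTX015, against 151, 138 and 197 CPM with vehicle. The AML3 compound libraries all lay below vehicle, by less than the test required, and the AML2 groups overlapped. The log2 change was −0.46 (SE 0.27, adjusted p = 0.166) with JQ1 and −0.52 (SE 0.28, adjusted p = 0.116) with OTX015 in AML3, and −0.27 (SE 0.25, adjusted p = 0.42) with JQ1 and −0.25 (SE 0.25, adjusted p = 0.452) with OTX015 in AML2. The 95% intervals reached −1.02 and −1.09 in AML3 and −0.78 and −0.76 in AML2, so falls of that size were not excluded at this depth. With vehicle ODC1 was lower in AML3 than in AML2, with a log2 difference of −1.10 (SE 0.25, adjusted p = 0.00195), with no overlap and under all 25 alternatives. AMD1 and ODC1 windows are shown because these are the polyamine genes that were not called lower, and each holds TATAA upstream of its start. A second RefSeq start of ODC1, further into the gene, holds 2 E-boxes. The start regions that lay further into ODC1 than the main one held 0.344% and 0.172% of its tags.
AMD1 chr6:110874535-110874834, plus strand: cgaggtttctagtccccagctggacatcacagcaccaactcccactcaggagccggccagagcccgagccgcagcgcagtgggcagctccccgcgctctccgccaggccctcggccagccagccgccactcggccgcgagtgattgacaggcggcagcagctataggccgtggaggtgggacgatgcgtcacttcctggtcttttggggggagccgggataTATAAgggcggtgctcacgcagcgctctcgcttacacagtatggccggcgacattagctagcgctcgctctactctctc
ODC1 chr2:10448278-10448577, minus strand: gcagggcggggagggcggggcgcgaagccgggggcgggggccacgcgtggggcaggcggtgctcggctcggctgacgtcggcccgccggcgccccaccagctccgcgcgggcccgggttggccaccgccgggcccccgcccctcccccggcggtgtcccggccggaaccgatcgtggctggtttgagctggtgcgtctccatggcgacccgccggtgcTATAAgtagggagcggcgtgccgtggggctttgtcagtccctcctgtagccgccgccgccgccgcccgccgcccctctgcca
ODC1 second start chr2:10447963-10448262, minus strand: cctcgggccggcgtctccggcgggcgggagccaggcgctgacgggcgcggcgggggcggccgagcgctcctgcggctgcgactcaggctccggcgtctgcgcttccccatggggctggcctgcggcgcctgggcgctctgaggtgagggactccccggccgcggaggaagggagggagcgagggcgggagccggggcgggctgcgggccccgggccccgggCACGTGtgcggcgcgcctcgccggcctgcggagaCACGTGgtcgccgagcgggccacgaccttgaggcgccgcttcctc
TATAA began 29 bases before the AMD1 start and 32 before the first ODC1 start. The E-boxes of the second ODC1 start began 29 bases before it and 5 after it.

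Of the 6 salvage genes, 4 were called lower with each compound in AML3 and 2 in AML2. APRT and HPRT1 join free purine bases to PRPP. APRT had 158, 162 and 46.9 CPM with JQ1 and 142, 139 and 56 CPM with OTX015, against 385, 413 and 413 CPM with vehicle in AML3. In AML2 the libraries had 193, 177 and 168 CPM with JQ1 and 139, 158 and 139 CPM with OTX015, against 414, 302 and 344 CPM with vehicle, without overlap. The log2 changes were −1.69 with JQ1 and −1.81 with OTX015 in AML3 and −0.97 and −1.28 in AML2 (SE 0.32 to 0.33, adjusted p at most 0.018). The call for JQ1 in AML2 ended without AML2 vehicle replicate 1 (adjusted p = 0.0737) and without AML2 JQ1 replicate 2 (0.0567) or 3 (0.0705). HPRT1 was called lower in AML3, with log2 changes of −1.46 (SE 0.30, adjusted p = 0.000314) with JQ1 and −1.64 (SE 0.31, adjusted p = 0.000108) with OTX015, and in AML2 was at −0.70 (SE 0.29, adjusted p = 0.0618) and −0.62 (SE 0.29, adjusted p = 0.089). UCK2, the uridine and cytidine kinase, was lower in all 4 comparisons, with log2 changes of −1.48 to −1.19. ADK, adenosine kinase, had 94.3, 88.8 and 92 CPM with JQ1 and 65.5, 72.3 and 118 CPM with OTX015, against 75.1, 86.5 and 73.7 CPM with vehicle in AML3. The AML2 libraries had 77.6, 72.3 and 102 CPM with JQ1 and 79.4, 90 and 67.4 CPM with OTX015, against 113, 72.1 and 97.1 CPM with vehicle. Its log2 changes lay between −0.22 and 0.22, and none was called. PNP, purine nucleoside phosphorylase, had wide spreads and was not called, with log2 changes between −0.65 and 0.41.

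DCK, the kinase that starts deoxynucleoside salvage and activates cytarabine (GRCh38 chromosome 4, 70992538 to 71030914), had 30.2, 22.2 and 14.4 CPM with JQ1 and 13.1, 16.4 and 8.61 CPM with OTX015, against 31.1, 45 and 65.2 CPM with vehicle in AML3. In AML2 it had 73.1, 74 and 60 CPM with JQ1 and 63, 61.9 and 67.4 CPM with OTX015, against 86, 61.3 and 62.6 CPM with vehicle. All AML3 compound libraries were below vehicle, and the AML2 groups overlapped. Its log2 change was −0.93 (SE 0.28, adjusted p = 0.00787) with JQ1 and −1.74 (SE 0.32, adjusted p = 7.25e-05) with OTX015 in AML3, against −0.0045 (SE 0.24, adjusted p = 1) with JQ1 and −0.13 (SE 0.24, adjusted p = 0.697) with OTX015 in AML2. Without AML3 vehicle replicate 3, the highest of its group, the JQ1 call ended (log2 −0.68, adjusted p = 0.0539). The effect in AML3 minus that in AML2 was −1.61 (SE 0.40, adjusted p = 0.0122) for OTX015, kept under all 25 alternatives, and −0.93 (SE 0.37, adjusted p = 0.135) for JQ1.

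Among the nucleotide kinases, NME2 was the most abundant member and fell in every comparison. AML3 libraries had 275, 231 and 139 CPM with JQ1 and 222, 222 and 127 CPM with OTX015, against 1113, 1064 and 1133 CPM with vehicle, and in AML2 it had 339, 351 and 307 CPM with JQ1 and 286, 329.9 and 221 CPM with OTX015, against 1107, 987 and 888 CPM with vehicle. The groups were far apart, and the log2 changes were −2.35 with JQ1 and −2.52 with OTX015 in AML3 and −1.58 and −1.83 in AML2 (SE 0.29 to 0.30, adjusted p at most 0.000137). NME2 encodes a nucleoside diphosphate kinase, which moves phosphate to nucleoside diphosphates (GRCh38 chromosome 17, 51165435 to 51171747). The read-through symbol NME1-NME2, whose tags start upstream at the NME1 promoter, fell as well: in AML3 it had 101, 99.3 and 19.8 CPM with JQ1 and 90.7, 72.3 and 17.2 CPM with OTX015, against 497, 510.5 and 459 CPM with vehicle, and in AML2 it had 73.1, 105 and 81.1 CPM with JQ1 and 79.4, 90.9 and 82.1 CPM with OTX015, against 649.7, 539 and 607 CPM with vehicle. Log2 changes were −2.68 with JQ1 and −2.95 with OTX015 in AML3 and −2.78 and −2.82 in AML2 (SE 0.39 to 0.40, adjusted p at most 5.32e-06). Its start and the main NME2 start lie 12854 bases apart in hg19, and the RefSeq starts of the windows below lie 12852 apart. NME1 and NME2 are close relatives, but CAGE tags fall at their separate starts. The windows are shown because both starts fell and 1 of them holds an E-box, 34 bases after the NME1 start.
NME1 chr17:51153309-51153608, plus strand: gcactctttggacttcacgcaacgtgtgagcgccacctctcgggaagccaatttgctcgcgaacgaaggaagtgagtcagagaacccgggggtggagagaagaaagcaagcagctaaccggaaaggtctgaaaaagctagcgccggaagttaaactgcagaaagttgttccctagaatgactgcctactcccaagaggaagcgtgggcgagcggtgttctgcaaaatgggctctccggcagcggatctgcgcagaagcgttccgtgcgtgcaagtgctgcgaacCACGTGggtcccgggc
NME2 chr17:51166161-51166460, plus strand: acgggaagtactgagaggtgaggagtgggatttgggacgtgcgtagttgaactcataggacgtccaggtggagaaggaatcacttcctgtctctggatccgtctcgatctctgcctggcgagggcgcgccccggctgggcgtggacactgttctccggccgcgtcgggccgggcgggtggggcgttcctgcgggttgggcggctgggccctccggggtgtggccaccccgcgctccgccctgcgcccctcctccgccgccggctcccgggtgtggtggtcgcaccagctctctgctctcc
GUK1, guanylate kinase, changed least of this group on average and had 193, 217 and 164 CPM with JQ1 and 181, 171 and 121 CPM with OTX015, against 231, 266 and 306 CPM with vehicle in AML3. For AML2 the values were 255, 232 and 183 CPM with JQ1 and 187, 237 and 196 CPM with OTX015, against 310.1, 259.8 and 262 CPM with vehicle. It was called with OTX015 in AML3 (log2 −0.75, SE 0.23, adjusted p = 0.0088) and with JQ1 there was at −0.48 (SE 0.23, adjusted p = 0.0867). In AML2 it was at −0.31 (SE 0.23, adjusted p = 0.316) with JQ1 and −0.42 (SE 0.23, adjusted p = 0.149) with OTX015. CMPK1, the UMP and CMP kinase, was called lower in 3 comparisons, with log2 changes of −0.82 to −0.59, and not with JQ1 in AML2 (log2 −0.28, SE 0.22, adjusted p = 0.337). With OTX015 in AML2 its call ended in 5 of 18 fits leaving out 1 library, those without AML2 vehicle replicate 1 (log2 −0.38, adjusted p = 0.235), AML2 JQ1 replicate 3 or any of the AML2 OTX015 replicates. With JQ1 in AML3 it ended without AML3 vehicle replicate 3 (log2 −0.55) or AML3 JQ1 replicate 2 (log2 −0.63).

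**Figure D3:**
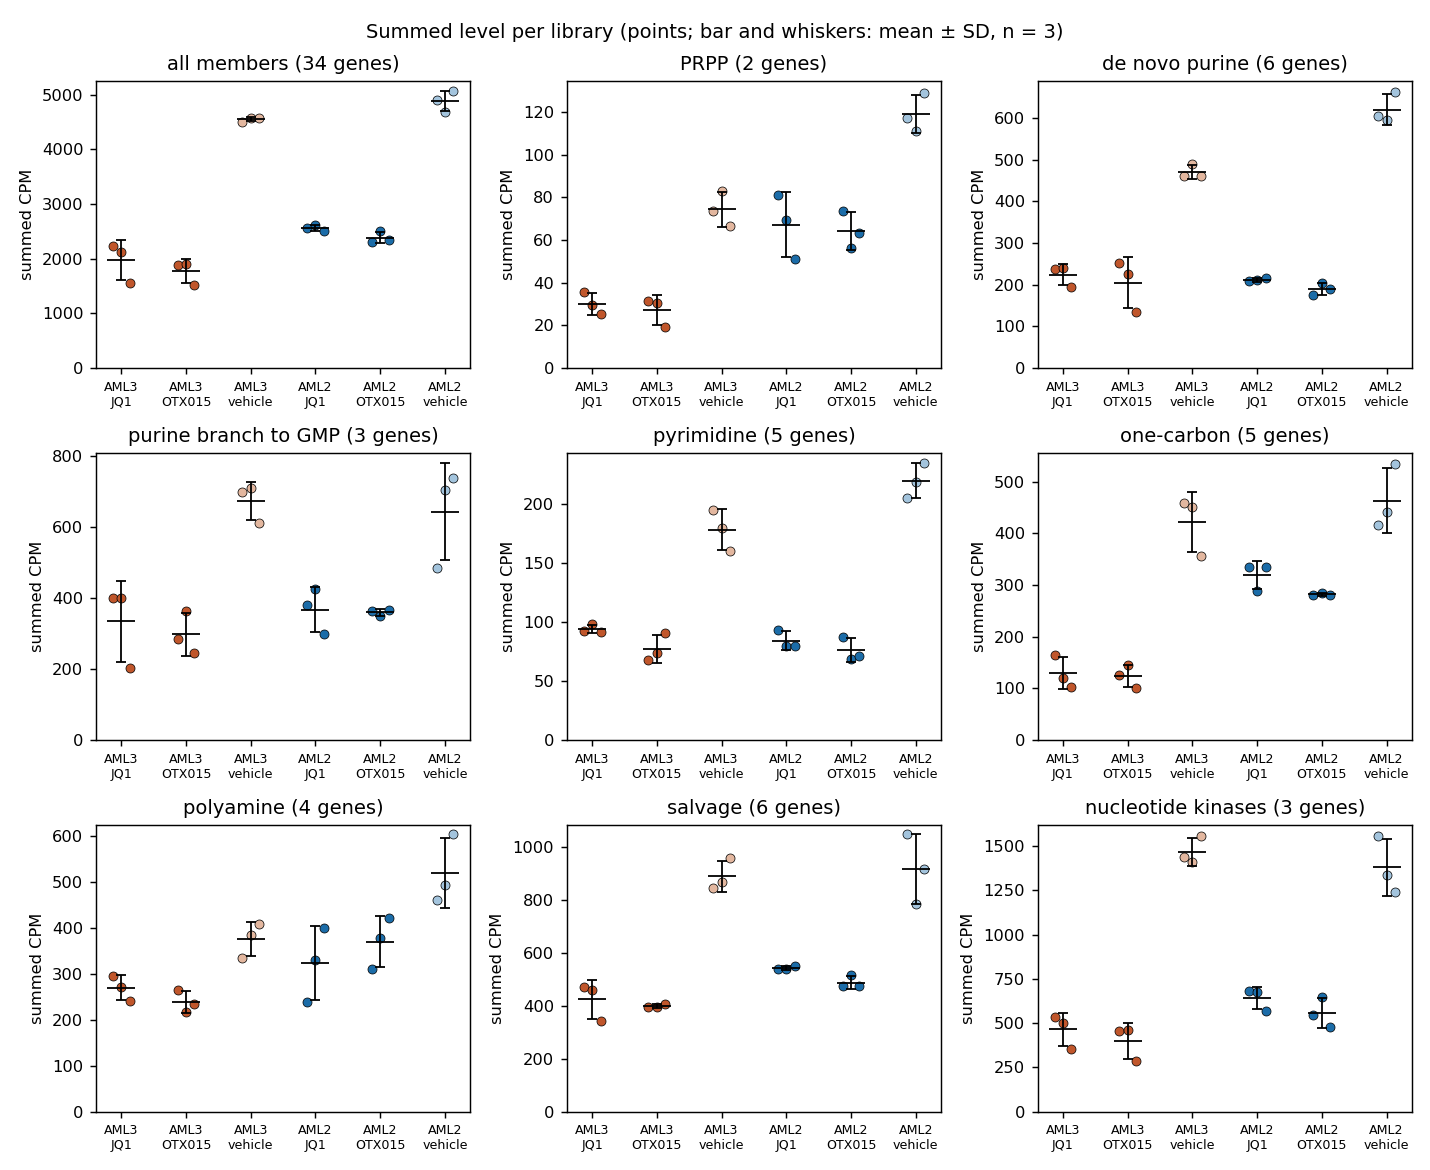
Summed level per library (y axis, TMM-scaled CPM; points are libraries, bar and whiskers the mean ± SD, n = 3) of all 34 members and of each role group, for AML3 and AML2 with JQ1, OTX015 and vehicle. In the panel of all members the compound libraries sit at 1518 to 2619 CPM and the vehicle libraries at 4502 to 5062 CPM; in the one-carbon panel the AML3 compound libraries sit at 101.2 to 163.6 CPM and the AML2 ones at 280.0 to 335.6 CPM.

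The compounds were compared directly within each line, at doses and times that the labels do not give. None of the 34 members was called between OTX015 and JQ1 in AML3 or AML2 (0 of 34 in each), where 0% of all genes were called. In AML3, 1 member and 253 genes had an unadjusted p under 0.05, and in AML2, 1 member and 331 genes did. DESeq2 and the fit with replicate numbers as a block gave 0 members as well, and DESeq2 called 1 gene in all, in AML2. The member differences, OTX015 minus JQ1, ran from −0.80 to 0.35 in AML3 and from −0.91 to 0.61 in AML2 on the log2 scale, and 28 and 22 of 34 were below 0. DCK in AML3 had the smallest p there, −0.80 (SE 0.36, adjusted p = 1), with a 95% interval of −1.54 to −0.07; ADSL had it in AML2, −0.50 (SE 0.23, adjusted p = 1), with an interval of −0.98 to −0.02. The fit with the replicate number as a block treats same-numbered libraries as paired. In it the DCK interval was −1.55 to −0.06 and that of ADSL −0.98 to −0.02, and 2 members in AML3 and 2 in AML2 had an unadjusted p under 0.05. In both fits the interval lay within 1 of 0 on the log2 scale for 25 members in AML3 and 27 in AML2; the intervals of the others reached past a 2-fold difference.

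Between the lines with vehicle, 0 members were higher and 4 lower in AML3 than in AML2, where 11.4% of all genes were called higher and 11.7% lower. DESeq2 gave 0 higher and 4 lower, and 8 members had an unadjusted p under 0.05. The 4 were ODC1, ADSL and GMPS, given above, and PRPS2, with a log2 difference of −1.01 (SE 0.20, adjusted p = 0.000399) under all 25 alternatives. Of the tests between the lines of the compound effects, 1 member was called higher (less lowered in AML3) and 2 lower for JQ1, where 3.02% and 3.92% of all genes were; for OTX015, 1 was higher and 3 lower, where 2.84% and 4.81% were. The members called were CTPS2, SHMT2 and MTHFD2 for JQ1, and ADSL, SHMT2, MTHFD2 and DCK for OTX015.

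The deposited table of promoters divides a gene's tags among start regions. Matching by equal counts in all 18 libraries tied 105 start regions to the 34 members, of which 51 passed the filter. Their coordinates are in hg19, as the table names them. In AML3, 30 of the 51 were called lower and 2 higher with JQ1 (23.8% and 26.5% of 12867 start regions), and 32 and 2 with OTX015 (25.8% and 28.4%). In AML2, 30 were lower and 1 higher with JQ1 (18.1% and 17.1%), and 31 were lower and 0 higher with OTX015 (20% and 20.5%). In the test of a differing response between the lines, 1 was higher and 3 lower for JQ1 (2.25% and 3.3% of start regions), and 1 higher and 2 lower for OTX015 (2.14% and 4.16%). For 13 members with at least 2 tested start regions, edgeR's test of unequal change (diffSpliceDGE), chosen after the promoter values were seen, called 5 with JQ1 and 4 with OTX015 in AML3, and 5 with JQ1 and 6 with OTX015 in AML2, where 26.6%, 28.7%, 19.4% and 24.5% of 1922 genes were called. GART, IMPDH1 and PAICS were called in all 4 comparisons and under each of 21 settings tried. The GART call involves a start that was scarce with vehicle, as described below.

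**Figure D4:**
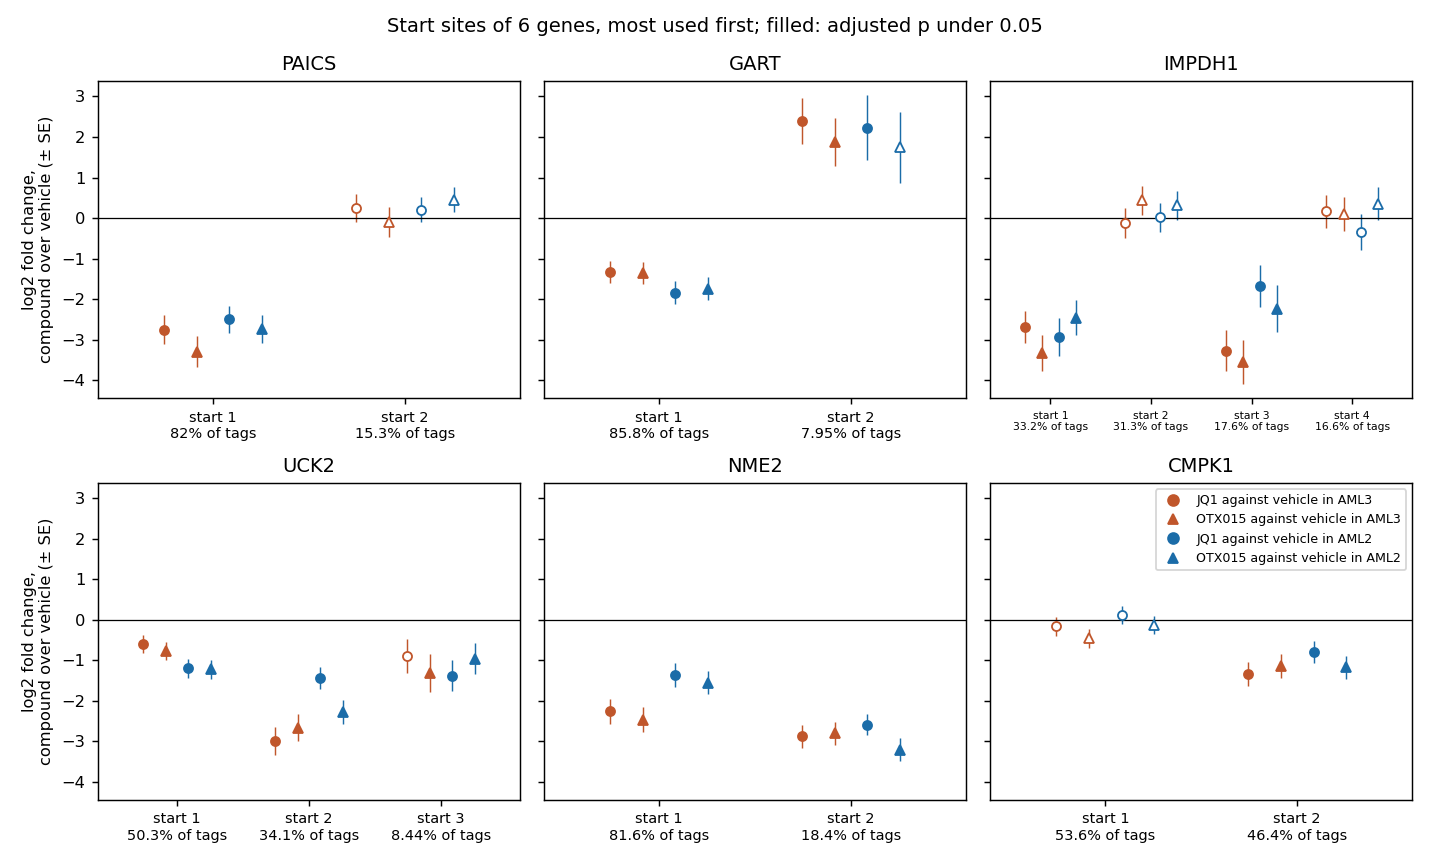
Log2 fold change over vehicle (y axis, ± SE) of the tested start regions of 6 genes, ordered by their share of the gene's tags, for JQ1 (circles) and OTX015 (triangles) in AML3 (orange) and AML2 (blue), with filled symbols where adjusted p was under 0.05. In PAICS and IMPDH1 starts called lower stand beside starts not called, and the second GART start lies above 0 where the first lies below. The second GART start was scarce with vehicle.

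The main PAICS start (hg19 chromosome 4, 57302399 to 57302441, 82% of its tags) had 23.5, 27.9 and 1.86 CPM with JQ1 and 10, 22.4 and 4.44 CPM with OTX015, against 149, 127 and 125 CPM with vehicle in AML3. In AML2 the libraries had 34.4, 40 and 28.4 CPM with JQ1 and 25.9, 37.1 and 23.4 CPM with OTX015, against 246, 170.0 and 178 CPM with vehicle. Against vehicle, log2 changes were −2.76 with JQ1 and −3.30 with OTX015 in AML3 and −2.50 and −2.73 in AML2 (SE 0.33 to 0.39, adjusted p at most 1.4e-06). A second start 102 bases upstream (57302297 to 57302322, 15.3% of tags) had 12.7, 20.4 and 9.29 CPM with JQ1 and 13.4, 12.3 and 6.67 CPM with OTX015, against 10.8, 11.5 and 15.8 CPM with vehicle in AML3. The AML2 libraries had 19.5, 16 and 24.9 CPM with JQ1 and 23.6, 22.4 and 23.4 CPM with OTX015, against 20, 13.5 and 18.3 CPM with vehicle. Its log2 changes lay between −0.09 and 0.45 and none was called. The main start lay 608 bases from that of PPAT, whose own main start (57301748 to 57301791, 69.3% of its tags) was not called in any comparison, with log2 changes between −0.18 and 0.14.

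IMPDH1 divided its tags between 2 places on chromosome 7. The main start (128045984 to 128046026, 33.2% of tags) had 6.33, 8.58 and 5.57 CPM with JQ1 and 3.34, 7.85 and 0 CPM with OTX015, against 40.8, 58.3 and 35.8 CPM with vehicle in AML3. For AML2 the values were 4.58, 1.78 and 7.11 CPM with JQ1 and 3.53, 5.85 and 8.52 CPM with OTX015, against 20.9, 35.3 and 37.9 CPM with vehicle. The log2 changes were −2.68 with JQ1 and −3.32 with OTX015 in AML3 and −2.93 and −2.45 in AML2 (SE 0.40 to 0.46, adjusted p at most 6.85e-05). A region beside it (128046035 to 128046058) was lower too, with log2 changes of −3.54 to −1.67. The starts 3997 bases upstream (128050000 to 128050023, 31.3% of tags, and 128050027 to 128050053, 16.6%) were called in none. The first of them had 9.95, 21.4 and 13 CPM with JQ1 and 25.6, 22.4 and 15.6 CPM with OTX015, against 12, 24.7 and 11.5 CPM with vehicle in AML3. In AML2 the libraries had 22.9, 14.2 and 17.8 CPM with JQ1 and 17.7, 20.5 and 32 CPM with OTX015, against 22.6, 16.3 and 14.4 CPM with vehicle, with log2 changes between −0.13 and 0.44. The IMPDH1 falls that were called thus lay at its downstream starts.

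In GART, a trifunctional enzyme gene of purine synthesis, the main start (chromosome 21, 34914394 to 34914440, 85.8% of tags) was called lower in all 4 comparisons, with the smallest change at −1.33 (SE 0.27, adjusted p = 0.000193) with JQ1 in AML3. A minor start 705 bases upstream (34915123 to 34915145, 7.95% of tags) had 11.8, 10.7 and 16.7 CPM with JQ1 and 13.4, 6.73 and 4.44 CPM with OTX015, against 1.8, 3.53 and 1.43 CPM with vehicle in AML3. The AML2 libraries had 3.44, 4.45 and 5.33 CPM with JQ1 and 3.53, 0.975 and 6.39 CPM with OTX015, against 0.87, 0.561 and 1.31 CPM with vehicle. It was called higher with JQ1 in AML3 (log2 2.40, SE 0.56, adjusted p = 0.00087), with OTX015 in AML3 (log2 1.87, SE 0.60, adjusted p = 0.0102) and with JQ1 in AML2 (log2 2.22, SE 0.80, adjusted p = 0.0307). With OTX015 in AML2 it was at 1.75 (SE 0.88, adjusted p = 0.114). Outside the AML3 compound libraries this start had at most 6.39 CPM. It thus passed the filter on low counts through the groups where it was high, and its calls do not by themselves establish a rise. The unequal change called for GART rests on this start and the main one, and carries the same limit. The second UCK2 start (chromosome 1, 165797024 to 165797069, 34.1% of tags) had 12.7, 8.58 and 0 CPM with JQ1 and 13.4, 11.2 and 4.44 CPM with OTX015, against 66.6, 66.3 and 70.2 CPM with vehicle in AML3. For AML2 the values were 29.8, 36.5 and 32 CPM with JQ1 and 16.5, 18.5 and 21.3 CPM with OTX015, against 89.6, 83 and 97.9 CPM with vehicle. Log2 changes were −3.00 with JQ1 and −2.66 with OTX015 in AML3 and −1.44 and −2.27 in AML2 (SE 0.27 to 0.34, adjusted p at most 0.000144), and the JQ1 effect in AML3 minus that in AML2 was −1.56 (SE 0.45, adjusted p = 0.0381), while for its main start the difference was 0.60 (SE 0.32, adjusted p = 0.294). The unequal change of UCK2 starts was called under all 21 settings in AML3, under 12 of 21 with OTX015 in AML2, and not with JQ1 in AML2.

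In NME2 the unequal change was called in AML2 under all 21 settings and not in AML3. The minor start (chromosome 17, 49243792 to 49243828, 18.4% of tags), 33 bases downstream of the main one, had log2 changes of −2.59 and −3.20 with JQ1 and OTX015 in AML2, where the main start was at −1.36 and −1.55. In CMPK1 the downstream start 96 bases from the main one was called lower in all 4 comparisons, with log2 changes of −1.34 to −0.79, and the main start in none. The unequal change of CMPK1 itself was called with JQ1 in AML3 and OTX015 in AML2, and for CTPS1 with JQ1 in AML2, where it held under 4 of 21 settings.

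The width of the start regions was also read. The main starts of AMD1, ODC1, MTHFD2 and PNP spanned 16, 17, 18 and 18 bases, and those of the other members 25 to 138 bases. These 4 were not called lower in AML2 with either compound, and in AML3 MTHFD2 alone of them was. They were also the members whose RefSeq window holds TATAA that begins 25 to 35 bases before the start, a feature of 4.24% of tested genes with a window. These classes were set after the member values were seen, and no test was made of them. Among all tested start regions, 15.5% of the 2105 that span at most 20 bases were called lower with JQ1 in AML2 and 27.1% higher, against 18.6% and 15.1% of the 10762 wider ones. In AML3 with JQ1 the narrow ones were called lower in 25.1% and higher in 36%, against 23.5% and 24.7%. Among all genes with TATAA at that distance, 331 in number, 10.3% were called lower and 32% higher with JQ1 in AML2, against 18.4% and 16.2% of the other 7483. In AML3 with JQ1 these were 19.6% and 39.6%, against 24.5% and 24.6%. DHODH, at 25 bases the next narrowest member, holds no such TATAA and was among the largest falls. ADK, DCK, GUK1 and HPRT1, with wider main starts and no such TATAA, were also not called lower in AML2 with either compound. Of these, ADK was not called lower in AML3 either.

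**Figure D5:**
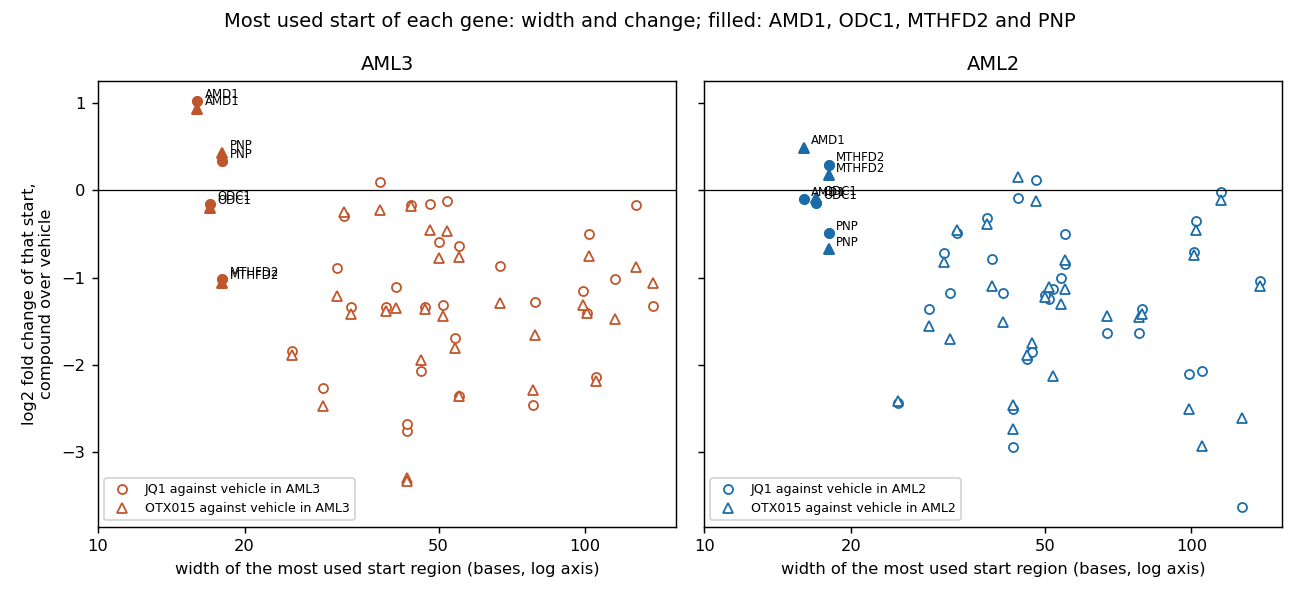
Width of the most used start region of each gene (x axis, bases, log scale) against its log2 change over vehicle (y axis) with JQ1 (circles) and OTX015 (triangles) in AML3 and AML2, with AMD1, ODC1, MTHFD2 and PNP filled. The 4 filled genes are the narrowest, at 16 to 18 bases, and in AML2 lie between −0.68 and 0.49.

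Of the 36 members, 33 have RefSeq windows, 50 windows in all. CACGTG, which reads the same on both strands, was found in 10 of 33 (30.3%), against 13.4% of 7814 tested genes and 8.77% of all 27305 genes with windows. The 10 were ATIC, DCK, DHODH, MTHFD1, MTHFD1L, NME1, ODC1, PAICS, PPAT and SRM. A gene was counted if any of its windows held CACGTG. The PAICS window printed above and the first ODC1 window hold none, so both genes were counted through another window. Few tags started near those other windows. The PAICS start region 503 bases upstream of the main one held 1.25% of its tags. The ODC1 start regions further into the gene than the main one held 0.344% and 0.172%. The PAICS site is the same DNA as the PPAT site. Both genes are in the group with CACGTG below. Counted per window, CACGTG was in 24% of the member windows and 7.26% of all 35116 windows. The member windows are not separate sites, as overlapping MTHFD1L windows hold the same CACGTG, and so do a PPAT and a PAICS window. The share among windows of tested genes was not counted, so these 2 shares do not measure an excess. GGGCGG, searched on both strands, was found in 84.8% of members and 79% of tested genes, CCAAT in 48.5% and 43.7%, TATAAA in 6.06% and 7.72%, TATAA, which TATAAA contains, in 27.3% and 14.3%, and the NRF1 motif, searched without mismatches, in 3.03% and 3.11%. Of the 9 tested members with CACGTG, 7 were called lower with JQ1 in AML3, 8 with OTX015 in AML3, and 7 with each compound in AML2. Of the 22 with a window that lacks it, 16, 18, 15 and 16 were called lower in the same order. The medians were −1.29, −1.75, −1.60 and −1.42 for those with it and −1.06, −1.19, −0.97 and −1.02 for those without. Over all genes tested, 24.1%, 26.1%, 17.4% and 19.9% were called lower in that order. The same shares for all tested genes with and without CACGTG were not counted. The difference between the 2 groups of members was not tested, and no cause is read from it. These are counts of letters in fixed windows, not of bound sites.

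Other genes of the same pathways, a list of 82 of which 67 were tested, were read in the same way. This list, too, was chosen with earlier results of these data known. In AML3, 31 were called lower and 9 higher with JQ1 (46.3% and 13.4%, where 24.1% and 26.8% of all genes were), and 32 and 10 with OTX015 (47.8% and 14.9%, where 26.1% and 28.8% were). In AML2, 23 were lower and 8 higher with JQ1 (34.3% and 11.9%, where 17.4% and 17.2% were), and 27 and 9 with OTX015 (40.3% and 13.4%, where 19.9% and 20.5% were). Their median log2 changes were −0.58 and −0.67 in AML3 and −0.42 and −0.49 in AML2. SAT1, which acetylates polyamines for breakdown and export, was called higher in all 4 comparisons: in AML3 it had 109, 90.9 and 146 CPM with JQ1 and 89.6, 122 and 144 CPM with OTX015, against 15.2, 13 and 5.67 CPM with vehicle, and in AML2 it had 104, 189.5 and 284 CPM with JQ1 and 241, 322 and 558 CPM with OTX015, against 44.7, 30.4 and 31.9 CPM with vehicle. Against vehicle, log2 changes were 3.22 with JQ1 and 3.25 with OTX015 in AML3 and 2.42 and 3.37 in AML2 (SE 0.35 to 0.40, adjusted p at most 8.67e-06). NT5C2, a nucleotidase that removes phosphate from IMP and GMP, was higher in all 4 too, with log2 changes of 0.99 to 1.61, and DPYD, which breaks down pyrimidines, with 1.29 to 1.80. MTHFD2L, a relative of MTHFD2, rose in AML3, where MTHFD2 fell: it had 28.5, 24.3 and 30.7 CPM with JQ1 and 24, 23 and 21.5 CPM with OTX015, against 7.62, 4.33 and 5.67 CPM with vehicle in AML3. In AML2 the libraries had 11.4, 10.6 and 15.9 CPM with JQ1 and 9.34, 13.5 and 18.9 CPM with OTX015, against 11.8, 13.6 and 11.5 CPM with vehicle. Its log2 change was 2.15 (SE 0.32, adjusted p = 6.9e-06) with JQ1 and 1.89 (SE 0.34, adjusted p = 4.62e-05) with OTX015 in AML3, and −0.04 (SE 0.32, adjusted p = 0.96) and 0.09 (SE 0.33, adjusted p = 0.916) in AML2. Those 4 had the smallest adjusted p of the listed genes called higher, and NME4, RRM1, DCTPP1 and AK4 of those called lower. The nucleoside diphosphate kinase gene NME4 fell by 2.77 to 3.60 on the log2 scale. RRM1, the large subunit of ribonucleotide reductase, fell by 2.30 and 2.91 in AML3 and 0.96 and 1.08 in AML2 with JQ1 and OTX015. DCTPP1, which clears unwanted dCTP analogues, fell by 2.04 and 2.55 on the log2 scale in AML3 with JQ1 and OTX015, and fell by 1.996 and 2.13 in AML2. AK4, a mitochondrial adenylate kinase, was at 4.31 CPM or less in every AML3 compound library and 6.17 CPM or less in AML2, against 26.9 to 31.1 CPM and 25.5 to 34.5 CPM with vehicle.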

How the data were processed

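CAGE tags were measured in 18 libraries of total RNA. The authors deposited raw tag counts per gene symbol and per promoter; reads were aligned with STAR to hg38, per the submitters' processing notes, with versions not given in those notes. Promoter names carry hg19 coordinates, which were used as given. The members and lists were chosen with earlier results of these data known.

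The deposited counts were fitted with edgeR 4.0.16 in R 4.3.3 (quasi-likelihood test, TMM scaling, 1 mean per group over all 18 libraries, 12 residual degrees of freedom). Genes and promoters with low counts were removed with filterByExpr (minimum count 10), which left 10031 of 14079 genes and 12867 of 42133 promoters. P-values were two-sided and adjusted by the Benjamini-Hochberg method over each table, and calls used 0.05; 95% intervals used the degrees of freedom of the test itself. CPM were computed with TMM factors, which ranged from 0.7689 to 1.554. The fit was tested on simulated data. Promoters were tied to genes by equal counts in all 18 libraries. Gene locations are from GENCODE 29 on GRCh38.

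Genes given with full values were, in each role group, those with the largest and smallest mean change over the 4 comparisons with vehicle, those called against the majority, those called between the lines in their response, and those called between the lines with vehicle. Of the other pathway genes, up to 4 in each direction with the smallest adjusted p were named. MTHFD1 and CTPS2 were added as the members with the largest falls with JQ1 in AML3 and in AML2. Alternatives were DESeq2 1.42.0, RLE size factors, library totals alone, no filter, only the groups compared, replicates 1 and 2 alone, a replicate block, and each library left out.

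Same-numbered libraries were checked for pairing by correlating their deviations from the group means. Of 45 correlations, 19 were over 0.1, with a range of −0.106 to 0.623. For OTX015 against JQ1 all 3 correlations were over 0.1 in AML3 (0.374, 0.351 and 0.623) and in AML2 (0.121, 0.158 and 0.347). Against vehicle, not all 3 were over 0.1 in either line. The labels do not say that same-numbered libraries were paired. The libraries numbered 3, the shallowest, gave the highest of the OTX015 and JQ1 values in each line, and the part of depth was not tested. All 3 were also over 0.1 for AML3 JQ1 with AML2 JQ1 (0.123, 0.106 and 0.246) and for AML3 OTX015 with AML2 JQ1 (0.121, 0.103 and 0.204). The table of enhancers was not used here.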

Additional observations from a re-analysis of the deposited data

Results flagged for a closer look

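For 5 members the response to a compound differed between the lines by edgeR's test of the difference itself, with Benjamini-Hochberg adjustment over all genes. For JQ1, 2.94% of members were called higher and 5.88% lower, where 3.02% and 3.92% of all genes were. For OTX015, 2.94% and 8.82% of members were, where 2.84% and 4.81% of all genes were. With so few genes, these shares are not read as a result about the members as a group. Values are the log2 effect in AML3 minus that in AML2. For JQ1 the difference was −1.59 for SHMT2, −1.34 for MTHFD2 and 2.95 for CTPS2. For OTX015 it was −1.33 for SHMT2, −1.27 for MTHFD2, −1.61 for DCK and 1.36 for ADSL. The differences of SHMT2 for JQ1 and of DCK and ADSL for OTX015 stayed called under each of the 25 alternatives. The other 4 were lost when some single libraries were left out, and all 4 were also lost with library totals alone. That of CTPS2 was lost with replicates 1 and 2 alone as well. CTPS2 rests on 4 tags in the AML2 JQ1 libraries together.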

How the results depend on the processing

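Under 25 alternatives no called change against vehicle, between lines or between responses reversed. Of the calls against vehicle, 18 of 26 with JQ1 and 19 of 29 with OTX015 in AML3, and 18 of 24 and 19 of 26 in AML2, held under every alternative. With each library left out in turn, members called lower numbered 23 to 26 (JQ1) and 25 to 28 (OTX015) in AML3 and 21 to 26 and 21 to 27 in AML2, and members called higher 0 to 1 in AML3 and 0 in AML2. Between the lines with vehicle, 2 to 6 were lower and 0 higher. For the difference in response, 0 to 1 were higher and 1 to 2 lower for JQ1, and 1 to 2 higher and 1 to 3 lower for OTX015. Members whose start sites changed unequally numbered 4 to 6 and 4 to 7 in AML3 and 4 to 5 and 4 to 7 in AML2. Library totals alone gave 2 members higher with JQ1 in AML3, 2 lower between the lines with vehicle, 1 lower in the JQ1 difference, and 2 higher and 1 lower in the OTX015 difference. DESeq2 gave 2 higher in the JQ1 difference. Replicates 1 and 2 alone gave 1 higher with JQ1 in AML2, 1 higher between the lines with vehicle, and 2 higher in each difference of response. The cause was not tested. With the replicate block, 26 and 28 members were lower with JQ1 and OTX015 in AML3 and 26 and 28 in AML2, 6 were lower between the lines with vehicle, and 2 were higher in the OTX015 difference; OTX015 against JQ1 stayed at 0. Of 18 libraries, 10 correlated best with their own number. Depth limits the scarce members most: CTPS2, DHODH, MTHFD1L and CAD.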
